A study of Mus musculus with 27 samples.

Results

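Acetaminophen (APAP) and its regioisomer AMAP were compared after 24 h of exposure in TAMH cells, with 3 arrays for each compound and a difference taken for each of 19938 genes. The 6 arrays belong to a series of 27 Affymetrix Mouse Gene 1.0 ST arrays, which cover control medium, 2 mM APAP and 2 mM AMAP, each at 2, 6 and 24 h, with 3 arrays in each of the 9 groups. The control arrays of 24 h and the arrays of 2 and 6 h serve here as references. TAMH cells are hepatocytes that were established as a line from transforming growth factor alpha transgenic mice, and every culture, controls included, was kept to confluence without serum in a medium with dexamethasone, insulin, transferrin and selenium. All data thus come from 1 line at 1 dose. Numbers 30, 31 and 32 tell the arrays within a group apart and may be passages, which is not stated. Nothing says either that they are separate cultures, and the p-values measure only the spread between these samples, which may be technical.

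The isomers differ in where the hydroxyl sits on the ring, para in APAP and meta in AMAP. APAP is the analgesic whose overdose injures the liver. Cytochromes P450 oxidise it to a reactive quinone imine, which is detoxified by glutathione and otherwise binds cell proteins, and stress-activated MAP kinases are part of the cell's answer. AMAP is widely used beside it as a less hepatotoxic isomer that also binds proteins. The question of the comparison, from the title of the series, concerns how acetaminophen regulates MAP kinase signalling in these cells. Among the pathways that follow, p53 is a transcription factor that responds to DNA damage and other stress by inducing genes of arrest, repair and death. The SREBP factors are membrane-bound regulators that are cut and released when sterols are scarce and that switch on the enzymes of cholesterol and fatty acid synthesis.

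Between the compounds, 928 genes were called at 24 h, 373 of them higher and 555 lower with APAP (limma with eBayes, Benjamini-Hochberg adjusted p under 0.05). This is 4.65% of all genes tested, 1.87% called higher and 2.78% called lower. The increases reached further than the decreases. Of the called genes, 39 were at least 2-fold higher with APAP and 2 were at least 2-fold lower, the linker histone gene H1f5 and Lss, the enzyme that closes the sterol ring. The median difference on the log2 scale was 0.44 among genes called higher and -0.38 among those called lower, against 0.02 over all genes. The median standard error of a difference was 0.10. In 907 of the 928 called genes the 3 arrays of one compound lay wholly above the 3 of the other, and such a separation was found in 22.4% of all genes.

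**Figure D1:**
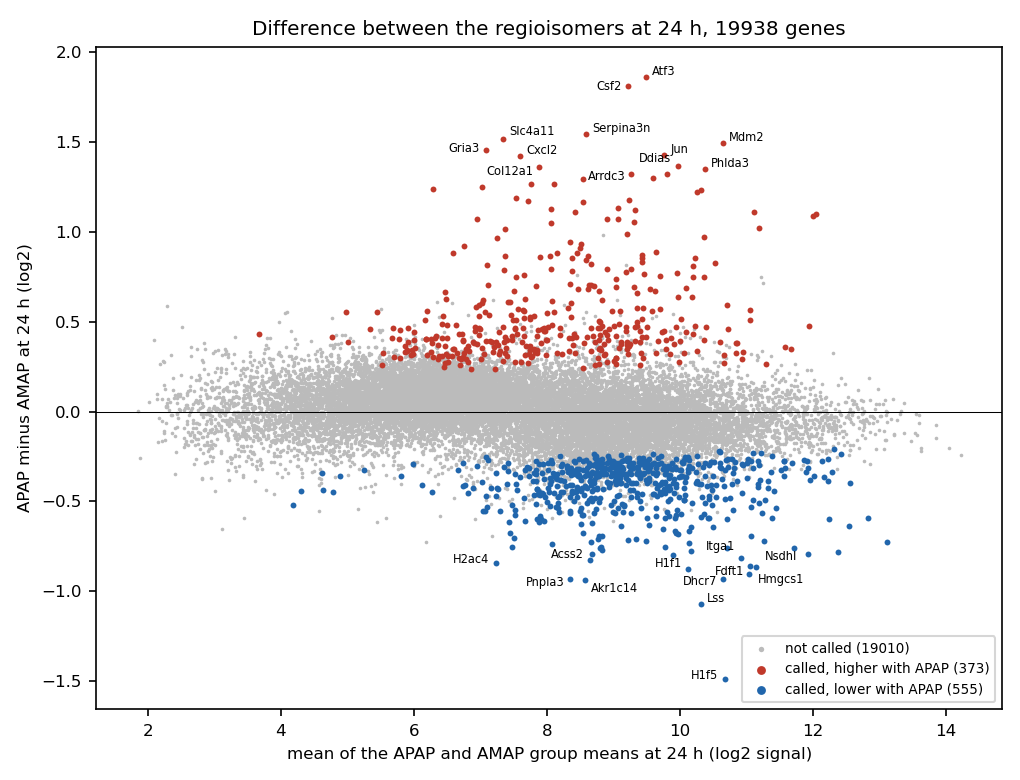
Each point is 1 of 19938 genes, with the mean of the APAP and AMAP group means at 24 h (log2 signal) on the x axis and the difference APAP minus AMAP (log2) on the y axis. Red points are the 373 genes called higher with APAP, blue points the 555 called lower and grey points the rest. The names mark the 12 largest increases and the 12 largest decreases among genes whose arrays do not overlap. Increases extend to 1.86 and decreases to -1.49, and most blue points lie to the right of the middle of the x axis.

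The difference moved with the signal level. Its median over genes was 0.07 for mean log2 values of 6 to 8 and -0.07 for values of 10 and above. Of the genes called lower, 161 had a mean log2 value of 10 or above, against 33 of those called higher. Arrays that were centred on their medians gave 302 genes higher and 1123 lower, so the share of calls that were higher fell from 40.2% to 21.2%. Cyclic loess, which removes such a trend within the arrays and was chosen after the data were seen, gave 391 higher and 468 lower. The part of the trend in single results was not tested beyond these scalings.

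The arrays themselves differed in weight. Principal components of the 9 arrays of 24 h held 31.6%, 23.3% and 11.3% of the variance, and APAP arrays 31 and 32 and AMAP array 31 stood farthest from the others of their group, with estimated array weights of 0.572, 0.515 and 0.629. Without AMAP array 30 the number of called genes fell to 507, with 262 lower. Without AMAP array 32 it fell to 575, with 310 lower. Without APAP array 32 the genes called higher fell to 228. The call counts without each single array lay between 507 and 809. Same-numbered arrays of the compounds deviated together, and the model with the number as a fixed block called 1262 genes, with all of the 928 among them.

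Atf3, a transcription factor that many kinds of stress induce, had log2 values of 9.87, 10.31 and 11.06 with APAP, 8.58, 8.30 and 8.79 with AMAP and 8.16, 8.19 and 8.88 in control medium. All 3 APAP arrays lay above all 6 others, and the AMAP and control arrays overlapped. APAP was 3.63-fold higher than AMAP, a log2 difference of 1.86 ± 0.24 (SE, adjusted p = 1.8e-05). Of the other genes among the 12 largest increases, Mdm2, Phlda3, Jun, Arrdc3, Csf2, Cxcl2 and Serpina3n are described with their groups. Slc4a11, a membrane transporter of the borate transporter family, lay at 8.10, 7.92 and 8.25 with APAP and at 6.54, 6.60 and 6.59 with AMAP, a difference of 1.51 ± 0.14 (adjusted p = 1.23e-07). Its control arrays lay between the groups, at 6.83, 7.02 and 6.84. Gria3, a glutamate receptor subunit best known from neurons, differed by 1.46 ± 0.12, Ddias, an anti-apoptotic gene linked to DNA damage, by 1.36 ± 0.14 and Col12a1, a fibril-associated collagen, by 1.36 ± 0.12. In bulk RNA, fewer cells of a kind and less RNA per cell cannot be told apart.

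Of 32 measured targets of p53 on the list, 23 were called higher with APAP and none lower, and the median difference was 0.75 on the log2 scale against 0.02 over all genes. The members not called had differences from -0.40 (Trp53inp2) to 0.22 (Sulf2). Neither Trp53 itself nor Cdkn1a, the cell cycle inhibitor that p53 is best known for, was matched to a probe set with 1 gene symbol. The count was 23 again after cyclic loess.

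Mdm2 stands first because it is both a target of p53 and the ubiquitin ligase that destroys it. The 200 bases before its annotated start (RefSeq, GRCm38.p6, chr10:117710759-117710958, minus strand, written 5′ to 3′ in the direction of the gene) hold 1 match to the p53 decamer, shown in capitals, from base -186 to base -177.
Mdm2: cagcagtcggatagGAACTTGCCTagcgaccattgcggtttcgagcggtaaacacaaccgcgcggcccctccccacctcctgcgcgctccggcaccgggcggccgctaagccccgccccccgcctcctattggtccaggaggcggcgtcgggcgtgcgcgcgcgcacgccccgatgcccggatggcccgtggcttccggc
A match of this motif, which reads the same on both strands, was found in 20.8% of the 24 list members that have a promoter window in RefSeq and in 7.3% of all 15614 tested genes with one. It was found in 11.5% of the genes called higher and 5.1% of those called lower. The 20.8% stands for 5 genes. Other lists had similar shares, 26.7% of the 15 cholesterol synthesis genes with a window, a list called mostly lower, and 19.4% in the MAP kinase cascade. A window runs from 250 bases before to 50 after the start. A match is a description of letters and not a binding site.

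The levels of Mdm2 followed the compound. Its log2 values were 11.25, 11.46 and 11.46 with APAP, 9.86, 10.07 and 9.77 with AMAP and 9.92, 10.09 and 9.95 in control medium. The APAP arrays stood apart from the rest, and the AMAP arrays overlapped the controls. APAP was 2.81-fold higher than AMAP (1.49 ± 0.14 on the log2 scale, adjusted p = 1.15e-07).

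Among genes of arrest and death, Btg2, an antiproliferative gene, had values of 10.62, 10.97 and 11.0015 with APAP, 9.51, 9.75 and 9.68 with AMAP and 9.48, 9.46 and 9.57 in the controls, a difference of 1.22 ± 0.12 (adjusted p = 4.16e-07). Fas, the death receptor, lay at 9.32, 9.62 and 9.39 with APAP, at 8.33, 8.62 and 8.16 with AMAP and at 8.80, 8.60 and 8.56 in the controls, a difference of 1.07 ± 0.10 (adjusted p = 1.46e-07). In both genes the APAP arrays lay above all others. Phlda3, a brake on AKT signalling, had values of 11.11, 10.87 and 11.16 with APAP, 9.84, 9.48 and 9.77 with AMAP and 10.04, 10.24 and 10.17 in the controls. Here the AMAP arrays lay below the control arrays as well, and the difference between the compounds was 1.35 ± 0.19 (adjusted p = 4.69e-05). Psrc1, a microtubule regulator, showed the same order and differed by 1.32 ± 0.14 (adjusted p = 6.4e-07). Sesn2, a sestrin of the nutrient and redox response, differed by 0.93 ± 0.16 (adjusted p = 0.000544).

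Other called members cover DNA repair (Ercc5 by 0.87 and the translesion polymerase Polk by 1.13), cell death (Perp by 0.75, Tnfrsf10b by 0.75, Pidd1 by 0.86, Aen by 0.73 and Ei24 by 0.56) and cell cycle control (Plk2 by 1.11, Plk3 by 0.45 and Ccng1). The repair genes Xpc and Ddb2, at 0.10 and 0.13, were not called. In the BCL2 family, 2 of 14 members were called higher and 2 lower. This is 14.29% in each direction, against 1.87% and 2.78% of all genes. Both higher members are also counted on the p53 list. The higher pair were the p53-driven activators of apoptosis Pmaip1, by 0.76 ± 0.10 (adjusted p = 2.39e-05), and Bbc3, by 0.46 ± 0.08 (adjusted p = 0.000986), and the lower pair were Bid, by -0.45 ± 0.09 (adjusted p = 0.00436), and Bok, by -0.43 ± 0.10 (adjusted p = 0.0144). The call of Bok was lost without APAP array 31, AMAP array 30 or AMAP array 32 (highest adjusted p = 0.0843). Mcl1, Bcl2 and Bcl2l1, which hold apoptosis back, had differences of 0.12, -0.12 and 0.03.

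**Figure D2:**
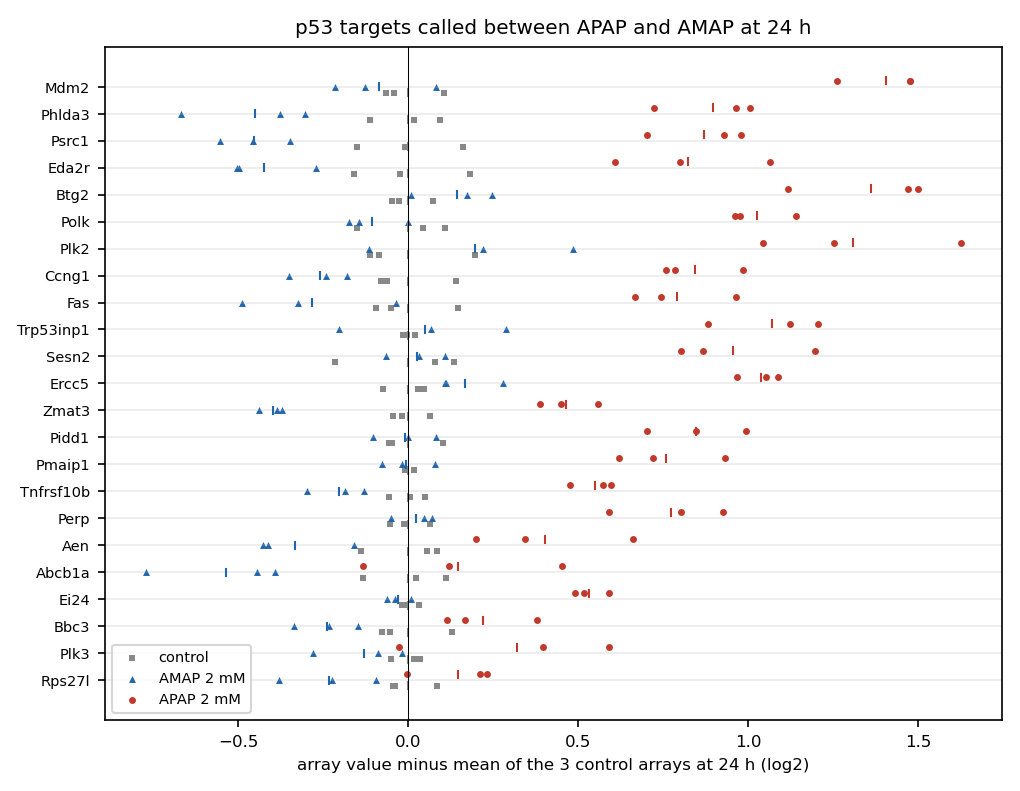
Each row is 1 of the 23 p53 targets called between the compounds, and each marker is 1 array of 24 h, as its value minus the mean of the 3 control arrays (log2). Circles are APAP, triangles AMAP and squares control, and the short lines are group means. The APAP arrays lie to the right of the AMAP arrays in every row except Plk3, where the lowest APAP array overlaps them, and in several rows, such as Phlda3, the AMAP arrays lie to the left of the controls.

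Immediate early genes, which growth factors and stress kinases induce within minutes, were in part higher with APAP a day after dosing. Of 28 members, 10 were called higher and none lower, with a median difference of 0.29. They include Atf3 and Btg2, described above, and Btg2 is also counted among the p53 targets. Jun, the AP-1 subunit that the JNK kinases act on, had values of 9.95, 10.37 and 11.09 with APAP, 8.99, 9.06 and 9.09 with AMAP and 8.77, 8.74 and 8.86 in control medium. APAP array 32 was the highest, and no APAP array overlapped another group. The difference was 1.43 ± 0.21 (adjusted p = 0.000121), or 2.69-fold. Ier5, an early response gene, rose by 0.81 ± 0.13 (adjusted p = 0.000182), and smaller calls were made for Klf10 (0.71), Klf4 (0.48), Junb (0.47), Zfp36 (0.46), Fosb (0.39) and Fosl2 (0.35). Fos and Egr1, the members best known as early genes, were not called. Fos differed by 0.34 (95% interval 0.09 to 0.58, adjusted p = 0.113) and Egr1 by 0.44 (0.12 to 0.76, adjusted p = 0.111). The list count was 6 without APAP array 32, 6 without AMAP array 31 and 6 on the 6 arrays of the comparison alone. Without number 30, 31 or 32 in all 9 groups it was 5, 4 and 5.

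On the list of the MAP kinase cascade, which also holds the Gadd45 genes, 4 of 33 members were called higher and 3 lower. The median difference was close to 0. The higher members include Gadd45b and Gadd45g, which are described in the next paragraph and are not kinases. The kinases at the base of the JNK branch did not pass the test: Mapk8 differed by -0.06 (95% interval -0.23 to 0.11, adjusted p = 0.741) and Mapk9 by -0.09 (-0.25 to 0.08, adjusted p = 0.59). Map2k6, the kinase that activates p38, lay at 8.55, 8.43 and 8.29 with APAP, at 9.26, 9.24 and 9.05 with AMAP and at 9.48, 9.36 and 9.27 in control medium. The APAP arrays were below all others, by -0.76 ± 0.10 against AMAP (adjusted p = 2.77e-05). The upstream kinases Map3k5 and Map3k1, which feed the stress branches, were called lower, at -0.44 and -0.40. Mapkapk3, a kinase downstream of p38, was higher by 0.88 ± 0.12 (adjusted p = 3.93e-05), with 6.99, 7.05 and 7.06 for APAP against 6.16, 6.05 and 6.24 for AMAP, and its controls of 6.46, 6.53 and 6.65 lay between. Map3k8 was called higher by 0.33.

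The GADD45 proteins bind an upstream kinase of this cascade and answer growth arrest and DNA damage. Gadd45b had values of 10.53, 10.50 and 10.92 with APAP, 9.86, 9.55 and 9.98 with AMAP and 9.74, 9.61 and 9.84 in the controls, and it rose by 0.85 ± 0.16 (adjusted p = 0.00217). Gadd45g rose by 0.79 ± 0.12 (adjusted p = 9.62e-05), from 7.75, 7.57 and 7.66 with AMAP to 8.34, 8.38 and 8.64 with APAP. Gadd45a differed by 0.46 (95% interval 0.09 to 0.83, adjusted p = 0.149), and with the number as a block its adjusted p was 0.0358. Of 17 phosphatases and feedback inhibitors of the cascade, 2 were called higher and none lower. Dusp8, which acts on JNK and p38, rose by 0.61 ± 0.11 (adjusted p = 0.00122). Dusp1, an inducible phosphatase of the stress kinases, rose by 0.82 ± 0.18 (adjusted p = 0.00853), and its call was lost without APAP array 32 or AMAP array 31 (highest adjusted p = 0.0686). Of 10 ligands and receptors of the EGF family, to which the line's transgene product belongs, Ereg (epiregulin) was called, higher by 0.63 ± 0.14 (adjusted p = 0.00645), and its call was lost without APAP array 32 or AMAP array 32 (highest adjusted p = 0.0628). Tgfa itself differed by -0.02 and Egfr by 0.19.

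Cholesterol synthesis fell along nearly the whole pathway. Of 18 measured enzymes, 16 were called lower with APAP and none higher, with a median difference of -0.74. The members not called were Ggps1 (-0.03), which leads away from sterols to longer isoprenoids, and Ebp (-0.14). After cyclic loess 13 were called lower.

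Promoters of these enzymes are shown because SREBP acts there beside the CCAAT-binding factor NF-Y. Hmgcs1 was the one named member whose window held the sterol response element as searched, TCACNCCAC on either strand, and Nsdhl and Pmvk were chosen after their values were seen, as members with the same direction. Sequences are from RefSeq (GRCm38.p6), end at the base before the annotated start and run 5′ to 3′ in the direction of the gene. They cover chr13:119690151-119690350, chrX:72918381-72918520 and chr3:89454381-89454540, all on the plus strand. Capitals mark the CCAAT box (CCAAT, or ATTGG where it lies on the other strand) and, in Hmgcs1, the sterol response element from base -137 to base -129. The stretches of Hmgcs1 and Nsdhl also hold matches to the p53 decamer, from bases -170 and -31, which are not marked.
Hmgcs1: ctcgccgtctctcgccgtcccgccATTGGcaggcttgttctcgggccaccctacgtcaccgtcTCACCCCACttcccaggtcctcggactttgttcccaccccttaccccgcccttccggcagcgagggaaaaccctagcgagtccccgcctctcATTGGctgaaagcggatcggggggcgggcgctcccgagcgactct
Nsdhl: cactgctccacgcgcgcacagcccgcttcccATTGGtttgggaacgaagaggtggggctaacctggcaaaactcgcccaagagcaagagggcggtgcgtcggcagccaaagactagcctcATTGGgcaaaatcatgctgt
Pmvk: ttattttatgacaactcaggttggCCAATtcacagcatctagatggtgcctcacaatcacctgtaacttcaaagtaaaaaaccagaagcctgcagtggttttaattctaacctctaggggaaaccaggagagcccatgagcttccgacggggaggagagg
The CCAAT box was found in 93.3% of the 15 list members with a window and in 38.2% of all genes with one. It was found in 41.2% of the genes called lower and in 38.3% of those called higher. Lists without a called gene at 24 h differed widely, with 85.7% of the endoplasmic reticulum chaperones and 25.9% of the respiratory chain genes with a window. The share in the mitosis list was 75.8%. A high share was thus not particular to the cholesterol synthesis list. The sterol response element as searched was found in 6.7% of the list and in 1.2% of all genes. The 6.7% is 1 gene, Hmgcs1, and the share in the acute phase list was 10.0%.

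The early, mevalonate part of the pathway was lower with APAP from its first committed enzymes on. Hmgcs1, which makes HMG-CoA, had values of 10.74, 10.55 and 10.49 with APAP, 11.52, 11.67 and 11.30 with AMAP and 11.48, 11.41 and 11.28 in control medium. The difference was -0.91 ± 0.16 (adjusted p = 0.000908). Pmvk, the phosphomevalonate kinase, lay at 8.59, 8.31 and 8.40 with APAP against 9.38, 9.06 and 9.12 with AMAP, a difference of -0.75 ± 0.10 (adjusted p = 2.9e-05). Fdps, which builds farnesyl diphosphate, lay at 10.38, 10.22 and 10.36 with APAP, at 11.22, 10.92 and 11.10 with AMAP and at 11.08, 11.06 and 11.05 in the controls. Its difference of -0.76 ± 0.08 had an adjusted p of 4.16e-07. In each of these 3 genes the APAP arrays lay below all AMAP and control arrays, and the latter overlapped. Mvk, Mvd and Idi1 of the same stretch were lower, at -0.56, -0.79 and -0.69.

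The sterol part began with Fdft1, the squalene synthase, which fell by 0.86 on the log2 scale (SE 0.12, adjusted p = 4.95e-05). Sqle, the squalene epoxidase, fell by 0.76 (SE 0.13, adjusted p = 0.000539). Lss had values of 9.88, 9.86 and 9.60 with APAP, 10.80, 10.98 and 10.76 with AMAP and 10.37, 10.55 and 10.47 in control medium. The order was APAP below control below AMAP with no overlap, and APAP was 2.1-fold lower than AMAP (-1.07 ± 0.17, adjusted p = 0.000186). Nsdhl, a sterol dehydrogenase, showed the same order at 10.88, 10.57 and 10.71 with APAP, 11.68, 11.54 and 11.53 with AMAP and 11.35, 11.46 and 11.40 in the controls (-0.86 ± 0.09, adjusted p = 3.48e-07). Dhcr7, which takes the last step to cholesterol, lay at 10.41, 10.04 and 10.11, at 11.19, 11.07 and 11.08, and at 10.74, 10.70 and 10.71 in the same order of groups (-0.93 ± 0.15, adjusted p = 0.00043). Tm7sf2, a sterol reductase, differed from the others in its controls. Its APAP arrays, at 10.94, 10.87 and 10.66, and its AMAP arrays, at 11.18, 11.26 and 11.13, all lay above the controls at 10.51, 10.43 and 10.55. Its difference of -0.37 ± 0.10 (adjusted p = 0.0226) lost its call without APAP array 32, AMAP array 30 or AMAP array 31 (highest adjusted p = 0.134).

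Of 13 genes of SREBP control and cholesterol handling, 4 were called lower and 1 higher, with a median difference of -0.03. Srebf1 lay at 10.26, 10.16 and 10.00 with APAP, at 10.68, 10.76 and 10.76 with AMAP and at 10.64, 10.66 and 10.77 in the controls (-0.59 ± 0.08, adjusted p = 2.77e-05), and Srebf2 was lower, at -0.51 ± 0.10 (adjusted p = 0.00164). Insig1, which holds SREBP back in the endoplasmic reticulum and is itself a target, was lower, at -0.78 ± 0.14 (adjusted p = 0.00138), and the sterol carrier Stard4 by -0.73 ± 0.08 (adjusted p = 3.11e-06). The called increase was Npc1, the lysosomal cholesterol exporter, at 0.38 (adjusted p = 0.0117).

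Fatty acid genes shared the direction in part. Of the 27 genes on the list for fatty acid synthesis and storage, 11 were called lower and none higher, with a median difference of -0.27. The count of lower genes was 6 without number 30 in all 9 groups and also 6 without number 31. The desaturases Scd1 and Scd2 were lower, at -0.79 ± 0.11 and -0.73 ± 0.09, with adjusted p of 3.22e-05 and 3.93e-06, and Fads1 and Fads2 by -0.60 ± 0.08 and -0.59 ± 0.09, with adjusted p of 5.51e-05 and 0.000151. These are paralogs within each pair, so the signal of a probe set may include some from the other gene. Pnpla3, a lipid droplet lipase, had values of 7.87, 8.001 and 7.80 with APAP, 8.93, 8.78 and 8.76 with AMAP and 8.54, 8.48 and 8.22 in control medium, again with the controls between (-0.93 ± 0.14, adjusted p = 0.000163). Acss2, which makes acetyl-CoA from acetate, had 8.35, 8.26 and 8.09 with APAP and 9.28, 9.08 and 8.81 with AMAP, and its controls of 8.32, 8.38 and 7.89 overlapped APAP. The difference of -0.82 ± 0.18 (adjusted p = 0.00753) lost its call without AMAP array 30 (adjusted p = 0.0581). Acly, Acaca, Elovl6, Elovl5 and Gpam were also called, at -0.49, -0.58, -0.64, -0.29 and -0.53. Fasn, the fatty acid synthase, differed by -0.36 (adjusted p = 0.0635).

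**Figure D3:**
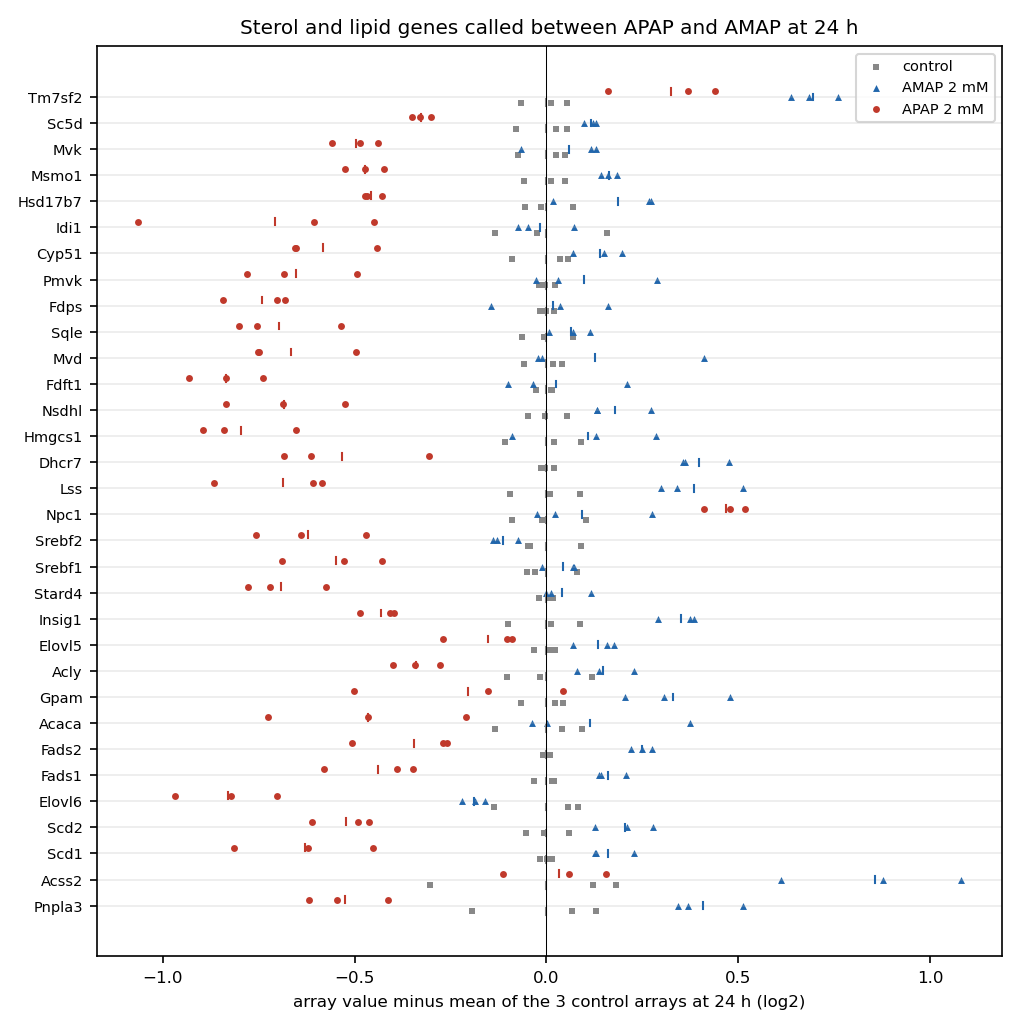
Each row is 1 called gene of cholesterol synthesis, SREBP control or fatty acid synthesis, and each marker is 1 array of 24 h as its value minus the mean of the 3 control arrays (log2). Circles are APAP, triangles AMAP, squares control, and short lines are group means. In Lss, Dhcr7 and Nsdhl the controls lie between the compounds, in Acss2 they lie with APAP, and Npc1 is the row in which APAP lies to the right of AMAP.

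On the side of fat use, 2 of 24 genes of PPAR alpha and fatty acid oxidation were called, both higher. This is 8.33%, against 1.87% of all genes. Pdk4, which turns the cell from glucose to fat, had values of 9.75, 9.95 and 9.85 with APAP against 9.05, 9.32 and 8.68 with AMAP and 9.19, 8.92 and 8.64 in the controls (0.83 ± 0.13, adjusted p = 0.000219). Angptl4, a lipoprotein lipase inhibitor, was higher by 0.60 ± 0.15 (adjusted p = 0.0179), and its call was lost without APAP array 31, AMAP array 30 or AMAP array 32 (highest adjusted p = 0.11). Cpt1a, which brings fatty acids into mitochondria, and Acadm, of their oxidation, had differences of -0.06 and -0.14.

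Of 14 measured replication-dependent histone genes, which dividing cells express in S phase, 7 were called lower with APAP and none higher, with a median difference of -0.43. Histone genes of a family are near-identical copies, and their probe sets may share signal. H1f5 is shown because it fell furthest among the called genes. The 190 bases before its start (RefSeq, GRCm38.p6, chr13:21780626-21780815, minus strand, printed in the direction of the gene, chosen after its values were seen) carry CCAAT boxes and a TATA box (TATAAA), in capitals.
H1f5: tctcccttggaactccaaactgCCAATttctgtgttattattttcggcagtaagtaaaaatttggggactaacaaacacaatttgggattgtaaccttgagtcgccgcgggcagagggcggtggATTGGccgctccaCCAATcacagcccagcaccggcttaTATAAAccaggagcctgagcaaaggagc
In the 12 list members with a window, the CCAAT box was found in 83.3% and the TATA box in 66.7%, the latter against 12.1% of all genes.

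H1f5 lay at 10.15, 9.54 and 10.11 with APAP, at 11.60, 11.29 and 11.37 with AMAP and at 11.76, 11.68 and 11.67 in control medium. APAP was 2.8-fold lower than AMAP (-1.49 ± 0.18, adjusted p = 9.04e-06). Another linker histone, H1f1, fell by 0.87 on the log2 scale (SE 0.18, adjusted p = 0.00347), and H2bc14 fell by 0.80 (SE 0.17, adjusted p = 0.00425). H2ac4 and H2bc3 fell by 0.84 and 0.73, and both calls were lost without APAP array 31 or AMAP array 30 (highest adjusted p = 0.11 and 0.108). Without APAP array 31 the list count was 3, and without AMAP array 30 it was also 3. Without number 30 in all 9 groups it was 1, and without number 31 it was also 1. The calls of H1f1 and H2bc14 were lost in both of these fits (highest adjusted p = 0.152 and 0.163). The H4 genes of the list, H4c8 and H4c9, had differences of 0.05 and 0.02.

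Mitosis genes, with a median difference of -0.19, had 4 of 40 members called lower and 1 higher. Bub1b, a spindle checkpoint kinase, lay at 8.80, 8.09 and 8.45 with APAP, at 9.29, 9.12 and 9.25 with AMAP and at 9.52, 9.60 and 9.33 in the controls (-0.77 ± 0.18, adjusted p = 0.0109). Cenpf, a kinetochore protein, was lower, at -0.71 ± 0.17 (adjusted p = 0.0118) and Aspm, a spindle pole protein, by -0.56 ± 0.14 (adjusted p = 0.0178). Pimreg was the remaining lower call, at -0.48, and Ckap2 the higher one, at 0.48 ± 0.12 (adjusted p = 0.0216). The calls were not stable to single arrays. No member was called lower without APAP array 31, 1 was called lower without AMAP array 30 and 2 without AMAP array 31, and Ckap2 lost its call without APAP array 30 or 32 or AMAP array 31 or 32 (highest adjusted p = 0.109). Of the mitosis genes with a promoter window, 72.7% held the cell cycle homology region (TTTGAA), against 15.2% of all genes.

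Of 40 DNA replication and G1/S genes, 1 was called higher and 1 lower, with a median of -0.01. This is 2.5% in each direction, near the shares over all genes of 1.87% higher and 2.78% lower. Without APAP array 31 the count of higher genes was 4, without APAP array 30 that of lower genes was 2, and after quantile normalization 3 were called higher. The higher gene was Ccnd1, the G1 cyclin that growth factors induce, at 11.86, 11.66 and 11.77 with APAP, 11.55, 11.31 and 11.35 with AMAP and 12.01, 11.96 and 11.83 in control medium. Its AMAP arrays were below both other groups (0.36 ± 0.10 between compounds, adjusted p = 0.0322), and the call was lost without APAP array 30 or 32 or AMAP array 31 or 32 (highest adjusted p = 0.121). The lower gene was Uhrf1, a chromatin factor of S phase (-0.41 ± 0.11, adjusted p = 0.0356), lost without APAP array 31 or 32 or AMAP array 30 or 32 (highest adjusted p = 0.134). Myc differed by 0.12 (95% interval -0.20 to 0.44, adjusted p = 0.731).

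Among genes that restrain growth, Arrdc3, an alpha-arrestin, lay at 9.63, 9.75 and 10.42 with APAP, at 8.48, 8.76 and 8.59 with AMAP and at 7.94, 7.96 and 7.83 in the controls. Both compounds lay above control, and APAP was 2.5-fold above AMAP (1.32 ± 0.19, adjusted p = 4.82e-05). Txnip, the related inhibitor of thioredoxin, was higher by 1.09 ± 0.23 (adjusted p = 0.00485) and Tob1 by 0.35 ± 0.08 (adjusted p = 0.0121). The call of Tob1 was lost without APAP array 32 or AMAP array 30 (highest adjusted p = 0.0892). In all, 4 of 15 members of this list were called higher and 1, Cdkn2c, lower at -0.45. The higher members include Btg2, which is also counted on the p53 and immediate early lists. The transcription factor Mybl1, at 9.16, 9.11 and 9.30 with APAP against 7.998, 7.92 and 7.77 with AMAP, and the secreted peptidase Pm20d1, at 8.39, 8.34 and 8.43 against 7.14, 6.99 and 7.25, differed by 1.29 ± 0.13 and 1.26 ± 0.10 (adjusted p = 2.42e-07 and 1.68e-08). Of the clock genes, 1 of 17 was called, the repressor Nr1d1, higher by 0.82 ± 0.12 (adjusted p = 7.56e-05). Nr1d1 is 5.88% of its list, against 1.87% of all genes called higher.

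ATF4 is the transcription factor that the integrated stress response translates when protein synthesis is slowed, and it drives genes of amino acid supply and of recovery. Of 32 targets, 2 were called higher and 4 lower, with a median of -0.20. Ppp1r15a, which restarts translation, had values of 8.66, 9.14 and 9.59 with APAP, 7.79, 7.96 and 8.13 with AMAP and 7.78, 7.79 and 8.49 in control medium (1.17 ± 0.19, adjusted p = 0.000431). The other increase was Sesn2, also on the p53 list. The lower genes serve amino acid synthesis: Cth, of cysteine synthesis, lay at 9.03, 9.13 and 9.25 with APAP against 9.91, 9.79 and 9.87 with AMAP (-0.72 ± 0.12, adjusted p = 0.000486), and Psph and Psat1 of serine synthesis and Asns of asparagine synthesis were lower, at -0.51, -0.43 and -0.56. Psph lost its call without APAP array 31, AMAP array 30 or AMAP array 32 (highest adjusted p = 0.0782). With each of these left out, 1 member was called lower. After quantile normalization or cyclic loess, 4 targets were called higher and 2 lower, and after centring the arrays on their medians 8 were called lower. With the number as a block, 4 targets were called higher and 9 lower, and Ddit3 (CHOP), a death-linked factor with a difference of 0.53 (95% interval 0.19 to 0.87, adjusted p = 0.063), was called at 0.0101. Chac1, a glutathione-degrading target, differed by -0.08 (-0.37 to 0.21, adjusted p = 0.811).

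Of 19 genes of branched-chain amino acid breakdown, 5 were called lower and none higher, with a median of -0.17. Mccc1 and Mccc2, the subunits of the leucine pathway carboxylase, were lower, at -0.41 ± 0.08 and -0.39 ± 0.07 (adjusted p = 0.00167 and 0.00188), and Pcca, of propionate use, by -0.40 ± 0.08 (adjusted p = 0.00347). Hibch, of the valine pathway, was lower, at -0.45 ± 0.10 (adjusted p = 0.0109), a call lost without AMAP array 30 (adjusted p = 0.0935), and Bckdhb was lower, at -0.30. Without AMAP array 30 the count was 3, and without number 30 in all 9 groups it was 0. In glycolysis, 1 of 25 genes was called higher and 2 lower. These are 4.0% and 8.0%, against 1.87% and 2.78% of all genes. Pfkp was higher by 0.43 ± 0.10, the liver form of the same enzyme, Pfkl, lower, at -0.47 ± 0.11 and Aldoc lower, at -0.61 ± 0.14 (adjusted p = 0.00918, 0.0125 and 0.0124), and each call was lost without APAP array 32 or AMAP array 30 (highest adjusted p = 0.0537, 0.0732 and 0.0844).

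NRF2 is a transcription factor that responds to electrophiles, and its targets make glutathione and detoxifying enzymes. Of 38 measured genes, 1 was called higher and 2 lower, with a median difference of -0.12. The shares are 2.63% and 5.26%, against 1.87% and 2.78% of all genes. The count of lower genes was 4 with the number as a block, 8 after centring and 6 with array weights, and 2 genes were called higher after quantile normalization or cyclic loess. Without AMAP array 30 none was called lower. The panel members of this pathway were not called: Hmox1 differed by 0.22 (95% interval 0.01 to 0.44), Nqo1 by 0.27 (0.01 to 0.53), Gclc by 0.17 (-0.05 to 0.39) and Srxn1 by 0.03 (-0.19 to 0.24), with adjusted p of 0.25, 0.234, 0.397 and 0.926. The upper bounds thus stay under 0.54 on the log2 scale. Ephx1, the microsomal epoxide hydrolase, was the higher call, at 12.23, 12.33 and 11.97 with APAP, 11.68, 11.81 and 11.62 with AMAP and 11.39, 11.48 and 11.46 in control medium (0.47 ± 0.10, adjusted p = 0.00336). Tkt and Cbr1 were lower, at -0.33 ± 0.08 and -0.37 ± 0.09, and both were lost without AMAP array 30 (adjusted p = 0.065 and 0.117), Tkt also without APAP array 31 and Cbr1 also without APAP array 32 or AMAP array 32. For Cbr1 it was the AMAP arrays, at 10.38, 10.15 and 10.25, that lay above the controls of 9.92, 9.84 and 9.86.

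Drug-metabolising enzymes were mostly dim. The 37 measured cytochromes P450 and conjugating enzymes had a median level at the 23.6th percentile of all genes in control medium, and 1 was called higher and 1 lower. This is 2.7% in each direction, near the 1.87% and 2.78% of all genes. Cyp2e1, the P450 best known for oxidising APAP, lay at 5.24, 5.11 and 5.27 with APAP and at 5.26, 5.16 and 5.18 with AMAP, below the array medians of 7.25 to 7.36, and differed by 0.00 (95% interval -0.15 to 0.16). A probe set this dim may sit near its floor. Cyp3a13 was higher by 0.47 ± 0.13 (adjusted p = 0.0295), lost without APAP array 32, AMAP array 30 or AMAP array 31 (highest adjusted p = 0.161), and the sulfotransferase Sult1c2 was lower, at -0.57 ± 0.13 (adjusted p = 0.0105), lost without AMAP array 30 or 32 (highest adjusted p = 0.0668). Akr1c14, a hydroxysteroid dehydrogenase among the 12 largest decreases, lay at 8.30, 7.89 and 8.13 with APAP, at 9.32, 8.75 and 9.06 with AMAP and at 8.69, 8.81 and 8.87 in the controls (-0.94 ± 0.16, adjusted p = 0.000539). Of 27 transporters, 2 were called, the drug efflux pumps Abcb1b and Abcb1a, both higher, and with the number as a block 4 were called higher. Abcb1b had values of 10.17, 9.94 and 10.64 with APAP, 8.92, 8.92 and 9.02 with AMAP and 9.57, 9.73 and 9.91 in control medium. The AMAP arrays lay below the controls and the APAP arrays above them (1.30 ± 0.14 between the compounds, adjusted p = 7.87e-07). Abcb1a, its close paralog, was higher by 0.68 ± 0.12 (adjusted p = 0.000793) and is also counted on the p53 list.

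None of 24 endoplasmic reticulum chaperones, 37 respiratory chain subunits, 30 proteasome subunits or 39 ribosome biogenesis factors was called, with medians of 0.04, -0.05, -0.12 and -0.17, and 1 of 33 mitochondrial ribosomal proteins was, Mrps27, lower, at -0.45 ± 0.09 (adjusted p = 0.00168). Mrps27 is 3.03% of its list, near the 2.78% of all genes called lower. With the number as a block, 2 proteasome subunits and 2 mitochondrial ribosomal proteins were called lower. After centring the arrays on their medians, 4 members each of the proteasome, ribosome biogenesis and mitochondrial ribosome lists were called lower. Without APAP array 32, 2 proteasome subunits and 2 mitochondrial ribosomal proteins were called lower, and without AMAP array 31, 3 mitochondrial ribosomal proteins. Among 19 cytosolic heat shock genes, Cryab and Hspa1a were called higher, by 0.62 ± 0.14 and 0.34 ± 0.08 (adjusted p = 0.00939 and 0.0133), and the heat shock factor Hsf2 lower, by -0.30 ± 0.09 (adjusted p = 0.0431). The shares are 10.53% and 5.26%, against 1.87% and 2.78% of all genes. Cryab was lost without APAP array 32 (adjusted p = 0.0772), Hspa1a also without AMAP array 30 (highest adjusted p = 0.0998), and Hsf2 without any of the 6 arrays but AMAP array 32 (highest adjusted p = 0.192). In 15 metallothionein and zinc transporter genes the call was Slc39a10, a zinc importer, lower, at -0.69 ± 0.16 (adjusted p = 0.011), and lost without APAP array 31 or AMAP array 30 (highest adjusted p = 0.0844). Slc39a10 is 6.67% of its list, against 2.78% of all genes called lower.

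Secreted signals were higher with APAP in a few genes. Of 31 cytokine, chemokine and NF-kB genes, 4 were called higher and none lower, with a median of 0.02. Csf2, a growth factor for granulocytes and macrophages, had values of 10.02, 10.04 and 10.34 with APAP, 8.61, 7.70 and 8.65 with AMAP and 9.14, 8.88 and 9.39 in control medium. The controls lay between the compounds without overlap, and APAP was 3.51-fold above AMAP (1.81 ± 0.33, adjusted p = 0.000989). The difference from control was 0.99 (adjusted p = 0.054) for APAP and -0.82 (adjusted p = 0.31) for AMAP. Cxcl2, a neutrophil chemokine, differed by 1.42 between the compounds (adjusted p = 0.0226), with a call that was lost without APAP array 32 or any of the 3 AMAP arrays (highest adjusted p = 0.108). Lif, a cytokine of the interleukin 6 family, was higher by 0.88 ± 0.15 (adjusted p = 0.000685), at 8.83, 8.74 and 9.12 with APAP against 8.01, 7.78 and 8.25 with AMAP, and its controls of 8.56, 8.43 and 8.75 overlapped APAP. Il1a rose by 0.41 ± 0.08 (adjusted p = 0.00216), from values below 5 with AMAP, and a probe set this dim may sit near its floor. Nfkbia and Tnfaip3, the feedback inhibitors that NF-kB induces, had differences of 0.16 and 0.20.

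Acute phase genes, which the liver makes under inflammation, had 3 of 23 members called higher and none lower. Serpina3n, a protease inhibitor, had 8.92, 10.50 and 8.64 with APAP, 7.64, 8.60 and 7.18 with AMAP and 8.39, 7.85 and 7.55 in control medium. Number 31 was the highest of both compounds, and the lowest APAP array lay just above the highest AMAP array (1.55 ± 0.33, adjusted p = 0.00521, lost without AMAP array 32 at 0.0525). Lcn2, an iron-binding protein of innate defence, lay at 10.60, 11.04 and 10.89 with APAP, at 9.74, 9.99 and 9.90 with AMAP and at 10.58, 10.39 and 10.58 in the controls (0.97 ± 0.15, adjusted p = 0.000182). The AMAP arrays lay below the controls, by -0.64 (adjusted p = 0.04). Saa4 was called at 0.46 ± 0.13 (adjusted p = 0.0378), and its call was lost without any one of the 6 arrays (highest adjusted p = 0.152).

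Of 21 hepatocyte markers, whose median level in control medium was at the 92.3rd percentile of all genes, 1 was called, Foxa2. It is 4.76% of the list, against 2.78% of all genes called lower. Alb, the albumin gene, lay at 13.56 to 13.96 with APAP and 13.87 to 13.98 with AMAP (-0.14, 95% interval -0.35 to 0.06, adjusted p = 0.469). Of 17 hepatocyte transcription factors, 3 were called lower, Onecut1 by -0.47 ± 0.10, Foxa2 by -0.36 ± 0.08 and Foxa1 by -0.32 ± 0.09 (adjusted p = 0.00583, 0.0118 and 0.0297). All 3 calls were lost without AMAP array 30 (highest adjusted p = 0.0562, 0.0915 and 0.172), and Foxa1 was kept in the fit without AMAP array 31 alone. Hnf4a had a difference of -0.19. Of 14 apolipoproteins, Apon was called lower, at -0.46 ± 0.13 (adjusted p = 0.0482), a call lost without any one of the 6 arrays (highest adjusted p = 0.16), and none of 29 complement, coagulation and serpin genes was called. Apon is 7.14% of its list, against 2.78% of all genes called lower. Itga1, the alpha 1 integrin and the last of the 12 largest decreases, lay at 10.71, 10.65 and 10.20 with APAP, at 11.28, 11.60 and 11.12 with AMAP and at 11.45, 11.37 and 11.25 in the controls (-0.82 ± 0.14, adjusted p = 0.000787).

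Markers of other liver cells were dim. The lists of macrophage and leukocyte, endothelial, and fibroblast and stellate markers had median levels at the 24.0th, 26.2nd and 33.2nd percentile in control medium, and none of their 15, 12 and 17 members was called at 24 h. The mean level of the macrophage list lay between 6.38 and 6.52 over the APAP arrays, between 6.31 and 6.37 over the AMAP arrays and between 6.33 and 6.42 over the controls, and 14 of its 15 members had a difference above 0. The endothelial list lay at 6.19 to 6.20 with APAP and 6.12 to 6.14 with AMAP. The part of such small shifts of dim genes in the results was not tested. Biliary and progenitor markers were at the 81.6th percentile, and 1 of 8 was called, Sox9, lower, at -0.47 ± 0.11 (adjusted p = 0.0107) and lost without APAP array 30, AMAP array 30 or AMAP array 31 (highest adjusted p = 0.0773).

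**Figure D4:**
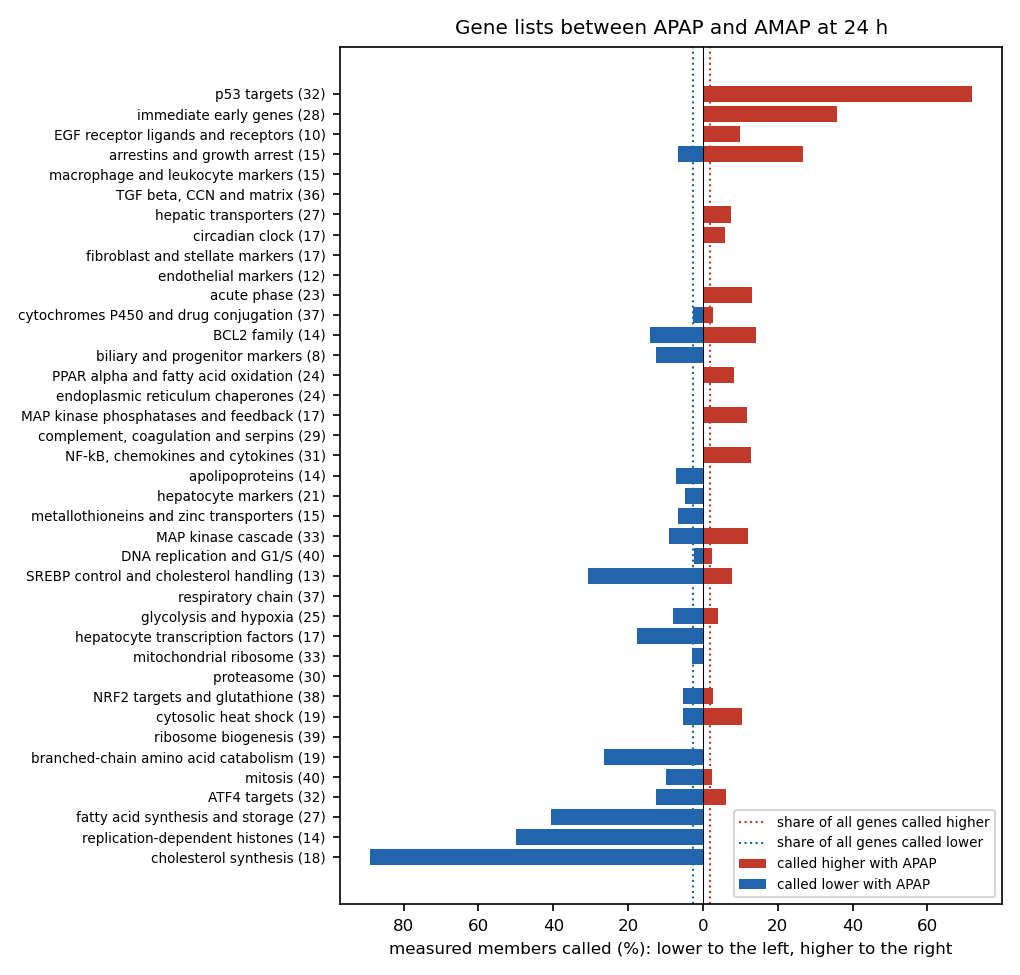
Each row is 1 of the 39 gene lists with its number of measured members in brackets, ordered by the median difference APAP minus AMAP at 24 h. Bars give the percent of members called higher with APAP to the right and lower to the left, and the dotted lines mark the shares over all genes, 1.87% and 2.78%. The longest bars are cholesterol synthesis, with 88.89% lower, and p53 targets, with 71.88% higher.

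Set against the control arrays of 24 h, which the comparisons of both compounds share, the groups read as follows. With APAP, 670 genes were called higher (3.36% of all genes) and 1190 lower (5.97%), and with AMAP 62 were called higher (0.311%) and 83 lower (0.416%). Of the 32 p53 targets, 19 were called higher with APAP and none lower, and with AMAP none was called higher and 1 lower. Of the 18 genes of cholesterol synthesis, 14 were called lower and 1 higher with APAP, and with AMAP 1 was called higher, which was Tm7sf2 at 0.69 (limma adjusted p = 0.000811). Of the 14 histone genes, 7 were called lower with APAP and none with AMAP.

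Across harvest times, the pair was compared 3 times at the same dose. The numbers of called genes were 52 at 2 h (0.261% of all genes, 0.0953% higher and 0.166% lower), 141 at 6 h (0.707%, 0.476% and 0.231%) and 928 at 24 h, and with p-values adjusted over the 3 comparisons together they were 101, 185 and 614. These counts do not test whether a gene's difference changed, which was done by contrasts of the differences. Against 6 h, 6 genes differed (0.0301% of genes), 5 with a more positive (0.0251%) and 1 with a more negative (0.00502%) difference at 24 h. Against 2 h, 97 differed (0.487%), 51 (0.256%) and 46 (0.231%). With the number as a block the counts were 30 and 166. Without AMAP array 30 they were 1 and 55, without AMAP array 31 the first was 10, without AMAP array 32 they were 2 and 56, and without APAP array 32 the second was 49.

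The 6 genes that differed from 6 h were Ces2e, Col12a1, Fdps, Exoc4, Gria3 and Ces2g, the last of which is outside the naming rule. Ces2e, a carboxylesterase that hydrolyses ester drugs, had values of 10.94, 11.06 and 10.79 with APAP and 9.70, 9.74 and 9.66 with AMAP at 24 h, against 9.96, 10.07 and 10.01 and 9.73, 9.80 and 9.75 at 6 h. The AMAP arrays of both times overlapped while the APAP arrays of 24 h lay above those of 6 h, and the difference between the compounds was larger by 0.98 (adjusted p = 4.978e-06). Its difference at 24 h, 1.23 ± 0.07, had an adjusted p of 1.37e-11. Col12a1 gained 1.08 (adjusted p = 0.0133), Gria3 0.96 (adjusted p = 0.0185), Exoc4, a subunit of the exocyst, 0.65 (adjusted p = 0.0185) and Ces2g, the close paralog of Ces2e, 0.86 (adjusted p = 0.0192). Fdps went the other way, by -0.65 (adjusted p = 0.0162).

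The medians of the lists took different courses, which were not tested against each other. By the contrast with 6 h, 1 of 18 genes of cholesterol synthesis passed, and none of the 32 p53 targets or 14 histone genes did. Cholesterol synthesis had medians of 0.04 at 2 h, -0.15 at 6 h and -0.74 at 24 h, with no member called at 2 or 6 h, and 8 of 18 members had a more negative difference at 24 h than at 2 h by the contrast. Fdps, for example, lay at 11.24, 11.28 and 11.22 with APAP and at 11.08, 11.22 and 11.16 with AMAP at 2 h, and its difference at 24 h was lower than that at 2 h by -0.85 (adjusted p = 0.0001332). The p53 targets had medians of 0.20, 0.45 and 0.75, with 3, 16 and 23 members called higher, and 7 had a more positive difference at 24 h than at 2 h. Mdm2 differed by 0.66, 0.93 and 1.49 at the 3 times, and the gain from 2 h was 0.83 (adjusted p = 0.0508). Immediate early genes had medians of 0.17, 0.19 and 0.29, with 6, 3 and 10 members called higher, and no member passed either contrast. Fos and Egr1, not called at 24 h, were called at 2 h, at 0.69 (adjusted p = 0.0039) and 1.06 (adjusted p = 0.0004). Histone genes ran from the larger to the smaller difference, with medians of -1.23, -0.67 and -0.43 and 9, 6 and 7 called lower, and 4 of 14 had a less negative difference at 24 h than at 2 h. H2ac4 differed by -2.46 at 2 h and -0.84 at 24 h (contrast 1.62, adjusted p = 0.00607), while H1f5 differed by -1.51 and -1.49. Mitosis genes had 14 members called lower at 6 h and 4 at 24 h, and none passed either contrast.

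**Figure D5:**
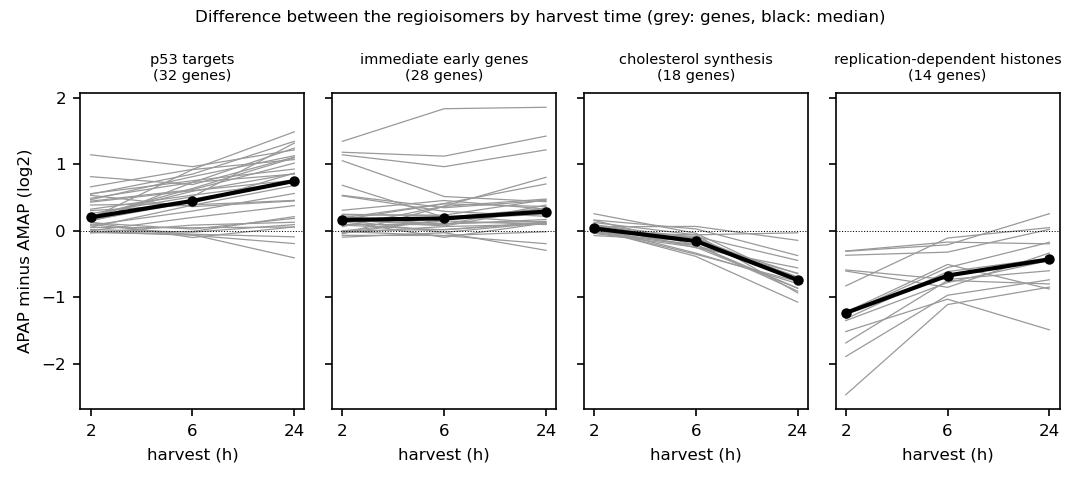
The difference APAP minus AMAP (log2, y axis) is drawn against harvest time (2, 6 and 24 h at equal spacing, x axis) for the members of 4 lists. Grey lines are single genes and the black line with points is the median of the list. The medians end at 0.75 for p53 targets, 0.29 for immediate early genes, -0.74 for cholesterol synthesis and -0.43 for histones, and the cholesterol lines leave 0 late while the histone lines start lowest at 2 h.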

How the data were processed

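Gene expression was measured on 27 Affymetrix Mouse Gene 1.0 ST arrays, 3 for each of 9 groups of compound and time. The deposited values are log2 expression per probe set, which the authors made with RMA in Affymetrix Expression Console 1.1, per the submitters' processing notes. The log base was inferred from the range of the values. RMA pulls arrays to 1 distribution, and array medians lay between 7.2456 and 7.3619. Correlations between arrays of a group lay between 0.9922 and 0.9974. An array's number of replicates limits the precision.

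Of 35557 probe sets, 21789 had 1 gene symbol, 1621 had several and 12147 had none in the platform annotation used here. Symbols were updated through Entrez identifiers for 21698. The brightest probe set stood for each of the 999 genes with more than 1, which gave 19938 genes. All 27 arrays were fitted with 9 group means in limma 3.58.1 (R 4.3.3) with eBayes (18 residual and 7.303 prior degrees of freedom), which shares 1 estimate of the spread. Genes with a Benjamini-Hochberg adjusted p under 0.05 over all genes were called, and ± is the standard error from that fit. The fit was tested on simulated data.

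The lists held 1003 entries, of which 940 matched a measured gene. The members and lists were chosen with earlier results of these data known. Named genes are the 12 largest differences in each direction among called genes whose arrays do not overlap and whose higher group has a mean log2 value of at least 6, the called members of each list that ranked among its 4 lowest p, a panel given whether called or not, and the 4 smallest p of each contrast between times. Other names were chosen after their values were seen. Arrays of APAP and AMAP with the same number deviated together at 24 h, with correlations of 0.2129, 0.4698 and 0.2921 over genes for numbers 30, 31 and 32, so a fit with the number as a block was set beside the unblocked one. Other settings tried were fits on the 6 or 9 arrays of 24 h, array weights, other scalings, a level filter, the mean of probe sets and fits without single arrays. Promoter windows came from RefSeq.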

Additional observations from a re-analysis of the deposited data

Results flagged for a closer look

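Genes are given here because their difference between the compounds (APAP minus AMAP, log2) was not the same at 24 h as at an earlier time by the contrast of the differences (limma, adjusted p under 0.05). Against 6 h the change in the difference was 0.9784 for Ces2e, 1.0778 for Col12a1, 0.9572 for Gria3 and 0.6453 for Exoc4, and it was -0.6528 for Fdps. The cause of these changes was not tested.

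Against 2 h, the difference became more positive by 1.288 for Ces2e, 1.3791 for Gria3, 0.9081 for Cdc42bpg, a kinase that acts on the cytoskeleton, 0.7853 for Exoc4, 1.194 for Col12a1 and 0.9492 for Pm20d1. The same held for Slc4a11 at 1.1381, Abcb1b at 1.1464, Nr1d1 at 0.7925 and Pdk4 at 0.8037. Among p53 targets it held for Fas at 0.8827 and Psrc1 at 1.062. Among histones, H2ac4 at 1.6182 and H2bc3 at 1.1534 had a less negative difference at 24 h than at 2 h.

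The difference became more negative in genes of cholesterol synthesis, by -0.8534 for Fdps, -1.0089 for Pmvk, -0.8264 for Nsdhl, -0.8607 for Fdft1, -1.0588 for Dhcr7, -1.0962 for Lss, -1.0643 for Hmgcs1 and -0.7842 for Sqle. Their regulators and carriers moved by -0.7815 for Stard4, -0.6413 for Srebf1 and -0.5965 for Srebf2. Genes of fatty acid synthesis and storage moved by -0.7216 for Scd2, -0.8297 for Scd1, -1.1452 for Pnpla3, -0.655 for Fads1 and -0.6191 for Fads2. The other 3 were Cth at -0.8176, Map2k6 at -0.6681 and Itga1 at -0.8658.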

How the results depend on the processing

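Of the 101 called named genes, 0 changed direction in the 22 alternatives run and 46 stayed called in every one. Of the 101, 65 stayed called whichever single array was left out, and 47 whichever number was left out of all 9 groups. In the fit on the 6 arrays alone, 70 were called. The count of 928 called genes (373 higher, 555 lower) became 1896 (725 and 1171) with the number as a block within each time, 314 (158 and 156) on the 6 arrays, 557 (308 lower) on the 9 arrays of 24 h, 1501 (945 lower) with array weights, 1425 (1123 lower) with arrays centred on their medians, 41 (39 and 2) at 2-fold or more and 614 (346 lower) when adjusted over the 3 times. With arrays left out it lay between 195 and 809. Genes called higher lay between 116 and 365 and genes called lower between 79 and 444. Without number 30 in all 9 groups, 8 members of cholesterol synthesis were called lower.

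The contrast with 6 h gave 30 genes with the number as a fixed block, 92 with the block within each time, 19 with a trended robust prior, 43 with array weights, 15 after centring and 14 among genes with a mean log2 value of at least 6, and between 0 and 10 with arrays left out. The contrast with 2 h gave 166, 334 and, with array weights, 223, and between 3 and 121 with arrays left out. The fixed replicate block kept all 101 called named genes and lost none of the 928 calls. The causes were not tested.

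Uncalled genes near 0 changed sign. Srxn1 became -0.0439 with array weights, -0.0264 after centring and -0.0851 to 0.1086 with arrays left out. Cyp2e1 became -0.0482 after centring, -0.0414 after quantile normalization and -0.0495 after cyclic loess, and ran from -0.0379 to 0.0526. With arrays left out, Mapk8 ran from -0.1762 to 0.0222, Myc from -0.0318 to 0.2434 and Chac1 from -0.1721 to 0.0092. Cyclic loess, added after the data were seen, ended the calls of Uhrf1 (adjusted p = 0.1036), Hsf2 (0.05345), Saa4 (0.07945) and Tm7sf2 (0.0887), and called Ddit3 (0.04823). The data come from 3 arrays a group of 1 line at 1 dose.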

Other observations

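Genes outside the lists, chosen after their values were seen, include a carboxylesterase cluster. Ces2g had log2 values of 9.72, 9.81 and 9.58 with APAP, 8.57, 8.89 and 8.69 with AMAP and 9.05, 8.97 and 9.03 in control medium at 24 h, so the controls lay between the compounds as they did for Ces2e. Its difference was 0.99 ± 0.11 (limma adjusted p = 1.09e-06). The dimmer Ces2f differed by 0.46 ± 0.08 (limma adjusted p = 0.000788). These are near-identical copies whose probe sets may share signal. Notch3, a receptor of the Notch family, lay at 8.90, 8.61 and 8.70 with APAP and at 7.47, 7.38 and 7.57 with AMAP, beside controls of 7.52, 7.55 and 7.57. Plod2, which hydroxylates collagen lysines, and Cpt1c, a relative of the carnitine palmitoyltransferases, were higher by 1.13 and 1.17. H2ax, the histone variant that marks DNA breaks when phosphorylated, lay at 9.04, 8.87 and 9.04 with APAP, at 9.78, 9.48 and 9.82 with AMAP and at 9.71, 9.81 and 9.77 in the controls, and fell by 0.71 on the log2 scale (limma adjusted p = 9.43e-05).

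In some genes the AMAP arrays lay below both other groups. Tnip3, an inhibitor of NF-kB signalling, lay at 6.87, 6.97 and 6.97 with AMAP, at 7.82, 8.36 and 8.19 with APAP and at 8.21, 8.42 and 8.16 in control medium, where APAP and control overlapped. Gja1, the gap junction protein connexin 43, lay at 7.46, 6.90 and 7.46 with AMAP, at 8.08, 7.72 and 8.31 with APAP and at 8.34, 8.36 and 8.39 in the controls, so the APAP arrays lay below the controls too. All arrays followed the order AMAP below control below APAP in 74 of the 373 genes called higher and in 111 of all genes, and the reverse order in 66 of the 555 called lower and in 90 of all genes. Against the shared control arrays, 1860 genes were called for APAP (9.33%) and 145 for AMAP (0.727%), and these comparisons share those arrays.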
